A study of Arabidopsis thaliana with 4 samples.

Results

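Tetraspanins were described here across leaves sampled before and after probenazole (PBZ). They were taken as every probe set that the array annotation pairs with exactly 1 gene whose symbol is TET followed by digits. This gave 12 of the 9571 genes that such probe sets name, out of 16319 probe sets in all, with 1 probe set for each of TET2, TET3, TET5, TET6, TET7, TET8, TET9, TET10, TET11, TET13, TET14 and TET16, and the other family members were not analysed here. The samples were rosette leaves 5 to 8 of Arabidopsis thaliana, the model plant thale cress, of age 5 weeks and grown in short days of 8 h light and 16 h dark. The first group, after PBZ, had been root-drenched with 0.5 mM PBZ, a plant defence activator used to raise the plant's own salicylic acid, and was sampled at 72 h. The second group, before PBZ, had received no treatment (0 h). Each group had 2 biological replicates, each on its own 1-colour Affymetrix array, and the labels name no ecotype or genotype. The 4 samples hold no untreated leaves taken at 72 h. Time, plant age and PBZ therefore cannot be told apart in any difference below.

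Tetraspanins are small membrane proteins that cross the membrane several times and gather partner proteins into patches of the plasma membrane. In animals they mark exosomes, the vesicles that leave a cell when a multivesicular body fuses with the plasma membrane. In Arabidopsis leaves TET8 is the most used marker of such extracellular vesicles, and TET8 and its close relative TET9 are known to gather at sites of fungal infection.

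The median signal per array was 32.5 and 27.1 after PBZ and 19.2 and 27.6 before PBZ, so before replicate 1 was the dimmest array, and the authors' scaling between arrays is not known. Over all 12239 tested probe sets the median log2 change was 0.37, and changes are best read against that shift. The ratios of 3' to 5' control signal, a sign of RNA integrity, overlapped between the groups for all 6 control pairs, but single arrays stood apart. Before replicate 1 was the lowest array for 4 of the 6 ratios, such as the second actin pair (2.54, against 10.6 to 12.9 on the other arrays), and after replicate 1 was highest for the first actin pair (64.8, against 22.4 to 26.5). The part of RNA integrity in the results that move with before replicate 1 was not tested. Of 27 marker genes of leaf cell types 3 were matched by the annotation to a probe set of 1 gene. The annotation lists no gene for 6278 probe sets, so an unmatched gene, here and below, may still be on the array. LHCB4.1, an antenna protein of mesophyll chloroplasts, was bright on every array, at 6940.3 and 5878.5 after PBZ and 5555.8 and 7642.0 before PBZ. The guard cell factor FMA (28.9 and 35.5 after PBZ, 22.5 and 24.7 before PBZ) did not pass the test. Nor did the phloem sugar transporter SWEET11 (1118.3 and 1342.5 after PBZ, 2008.7 and 1472.7 before PBZ). No epidermis or xylem marker was matched. The part of cell type makeup in the changes below was not tested.

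TET8 (AT2G23810) rose about 9-fold in leaves after PBZ. Its signal was 1386.1 and 1708.0 on the arrays after PBZ, against 103.2 and 269.8 on those before PBZ. Both arrays after PBZ stood above both before it, with a wide gap between the groups and a smaller one between the replicates before PBZ. The group means were 1547 ± 228 after PBZ and 186 ± 118 before PBZ (SD, n = 2 each). The log2 change was 3.20 ± 0.52 (SE; 9.22-fold, 95% interval 4.39 to 19.4; limma across all tested probe sets, 2-sided, Benjamini-Hochberg adjusted p = 0.00012). Of all tested probe sets 5.34% were called higher by the same test at an adjusted p under 0.05, and 254 (2.08%) had a larger fitted rise than TET8.

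The gap between the groups was also seen relative to the brightness of each array. As a multiple of each array's own median, TET8 stood at 42.6 and 63.0 after PBZ, against 5.38 and 9.78 before PBZ. Centring each array on its median gave a log2 change of 2.84, and quantile normalization gave 2.72. With any 1 array left out TET8 passed, at a log2 change of 2.51 without before replicate 1, the dimmest array, and 3.90 without before replicate 2. Such fits leave a group with 1 array, which is assumed to vary like the other group and like probe sets of like brightness, so their p-values, here and below, say little about replicate error. Without an intensity trend in the error model it did not pass (adjusted p = 0.069). In RNA of whole leaves, more cells of a type and more transcript per cell cannot be told apart.

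**Figure D1:**
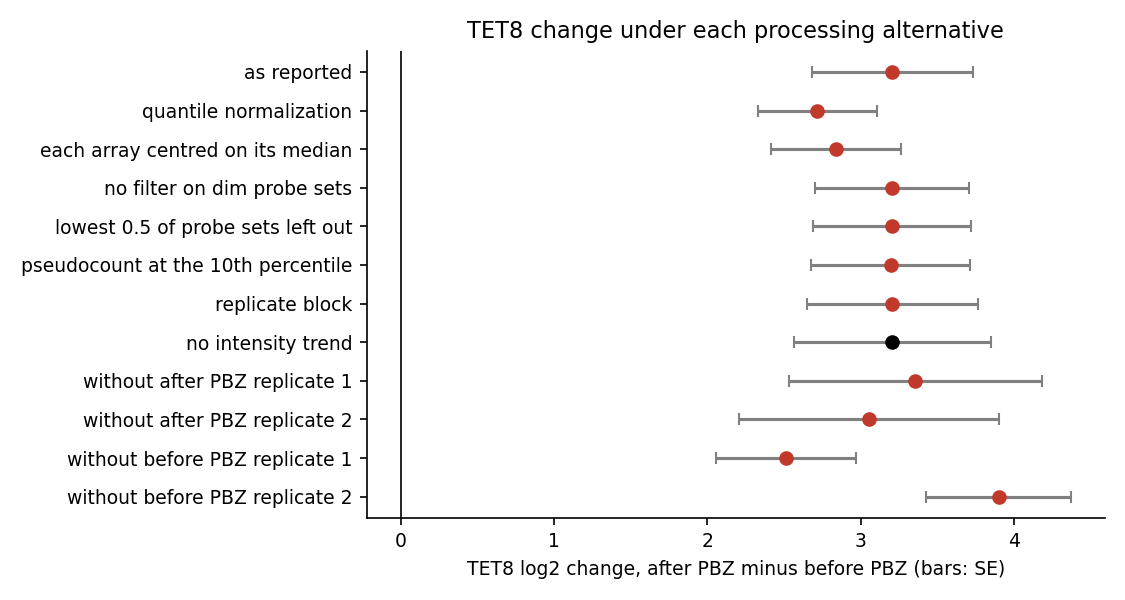
Log2 change of TET8, after PBZ minus before PBZ (horizontal axis), as reported and under each of 11 alternatives; bars are SE, red points have an adjusted p under 0.05 and the black point does not. All points lie between 2.51 and 3.90.

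None of the other 9 tested tetraspanins passed the test in either direction. Their adjusted p-values lay between 0.479 and 0.970, none had an unadjusted p under 0.05, and all 10 tested genes together held 1 call, against 5.58% of all tested probe sets called in either direction. Their median log2 change was -0.08, beside 0.37 for all tested probe sets, with 4 above and 5 below 0. TET11 and TET16 were too dim to be tested. The intervals were wide, reaching a 2.08-fold rise for TET2, 7.13-fold for TET13 and 13.8-fold for TET9, and a log2 change of -3.52 for TET14, so changes within them were not detectable with 2 arrays per group.

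**Figure D2:**
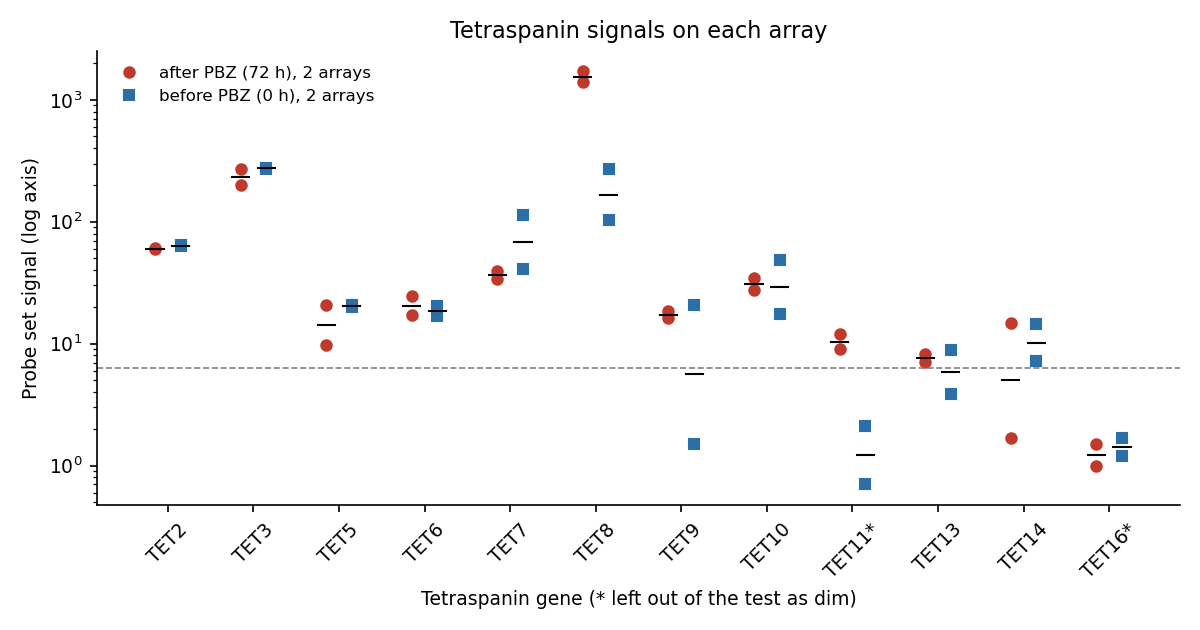
Signal of the 12 tetraspanin probe sets on a log axis, with red circles for the 2 arrays after PBZ, blue squares for the 2 before PBZ, and short lines for geometric means. The dashed line is the lower quartile of all signals, 6.30. The circles of TET8 lie far above its squares, and those of TET11 also lie above its squares but near the dashed line. Heights of different genes should not be compared, since each probe set has its own brightness per transcript.

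The close relatives of TET8 did not share its call. TET9 (AT4G30430), the other tetraspanin of infection sites, had signals of 16.1 and 18.4 after PBZ, against 1.5 and 20.9 before PBZ. Before replicate 1 alone was low, under the lower quartile of all signals, and the groups overlapped. Its log2 change was 1.62 ± 1.06 (adjusted p = 0.479). The change of TET9 turned to -0.28 without before replicate 1 and was 3.52 without before replicate 2, where TET8 was at 3.90. In the latter fit TET9 was set against the dim signal of 1.5 alone, and TET8 against 103.2. The size of 3.52 is therefore poorly measured and should not be read beside that of TET8. The sign and size of the change of TET9 thus rested on which array before PBZ was kept. TET7 (AT4G28050) had 34.2 and 39.3 after PBZ, against 40.8 and 113.3 before PBZ. Both arrays after PBZ were below both before it, as for 10.6% of all tested probe sets, but the replicates before PBZ differed more than the groups' nearest values. Its log2 change was -0.89 ± 0.59 (95% interval -2.10 to 0.32, adjusted p = 0.486). With quantile normalization it was -1.34 (limma adjusted p = 0.104) and with median centring -1.26 (0.137), and neither passed. Over all alternatives the change of TET7 ranged from -1.63 to -0.15 and kept its sign.

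TET3 (AT3G45600), which has been found at plasmodesmata, the channels between plant cells, did not pass the test. It had signals of 198.6 and 269.7 after PBZ, against 270.0 and 277.9 before PBZ, with a log2 change of -0.24 ± 0.53 (95% interval -1.33 to 0.85, adjusted p = 0.876). TET2 (AT2G19580) had 59.2 and 61.3 after PBZ, against 62.8 and 64.6 before PBZ, the closest replicates of any member. Both genes were a little lower on each array after PBZ than on each before it, as for 10.6% of all tested probe sets. The differences were far less than the error of the fit, and for TET3 the nearest values were 269.7 and 270.0. For TET2 the log2 change was -0.08 ± 0.56, and its interval of -1.22 to 1.05 leaves room for a change of about 2.08-fold upwards (adjusted p = 0.970).

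TET5 (AT4G23410) and TET6 (AT3G12090) are sister genes known to restrain organ growth together. TET5 had signals of 9.8 and 20.7 after PBZ, against 19.9 and 20.9 before PBZ. TET6 had 24.7 and 17.1 after PBZ, against 20.2 and 17.0 before PBZ. The groups overlapped for both, with 1 array after PBZ apart from its replicate in each. The log2 change of TET5 was -0.52 ± 0.72 (adjusted p = 0.784) and that of TET6 was 0.15 ± 0.67 (adjusted p = 0.949), and the sign of each turned without after replicate 1, to 0.02 and to -0.12. TET6 was also at -0.22 with quantile normalization and with median centring.

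TET10 (AT1G63260) had signals of 27.8 and 34.4 after PBZ, against 17.4 and 48.2 before PBZ. The values after PBZ lay between those before it (log2 change 0.09 ± 0.62, adjusted p = 0.969), and the sign turned to -0.26 with quantile normalization and -0.27 with median centring. TET13 (AT2G03840), a gene known from root development, had 8.3 and 7.1 after PBZ, against 3.9 and 8.9 before PBZ. TET14 (AT2G01960) had 1.7 and 14.8 after PBZ, against 7.2 and 14.5 before PBZ. Both were near the lower quartile of all signals and overlapped between groups. The log2 change of TET13, 0.38 ± 1.2 (adjusted p = 0.920), and that of TET14, -1.03 ± 1.22 (adjusted p = 0.740), carried the largest errors of the tested members. The sign of TET13 turned without before replicate 1 (-0.21), and that of TET14 without after replicate 1 (0.53).

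**Figure D3:**
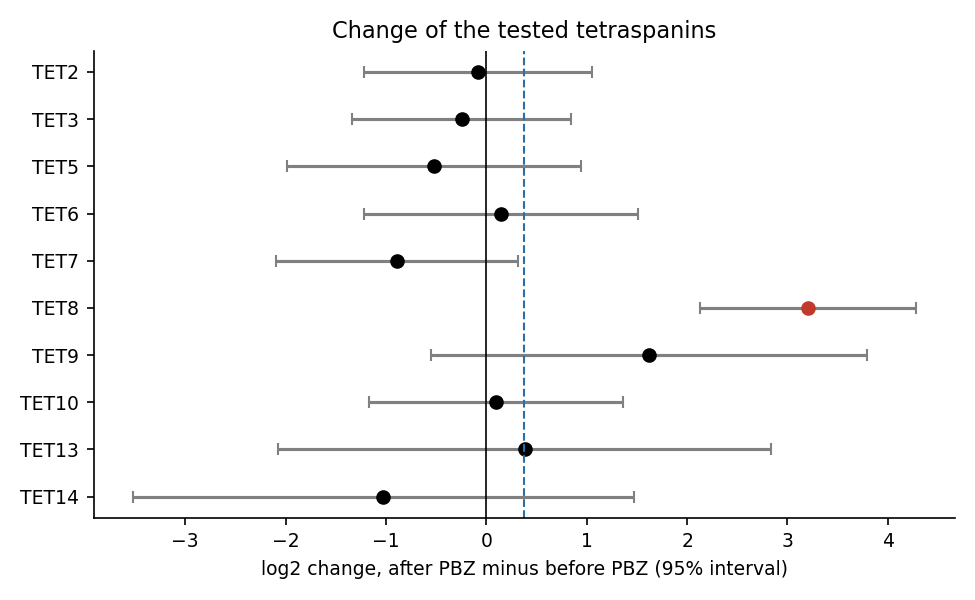
Log2 change, after PBZ minus before PBZ, of the 10 tested tetraspanins with 95% intervals; the solid line is 0 and the dashed line the median of all tested probe sets, 0.37. TET8, in red, passed the test, and its interval of 2.13 to 4.28 lies above those of 7 of the 9 others.

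TET11 (AT1G18520), known from sperm cells, and TET16 (AT1G18510) are next to each other in the reference annotation. TET11 had signals of 9.0 and 12.0 after PBZ, against 0.7 and 2.1 before PBZ. Both arrays after PBZ stood above both before it, as for 36.1% of all tested probe sets, and both before PBZ were under the lower quartile of all signals, 6.30. With its values before PBZ set to that floor, the ratio of geometric means was 1.65, with no error attached. With no filter on dim probe sets its log2 change was 3.10 ± 1.22 and it did not pass (adjusted p = 0.249, unadjusted p = 0.024). TET16 had 1.0 and 1.5 after PBZ, against 1.2 and 1.7 before PBZ, all under the floor, so no fold is given.

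TET8 was then set against the other tested members within each array, where the scaling of the arrays cancels. The log2 signal of TET8 minus the mean of the 9 others was 6.09 and 5.87 after PBZ, against 2.52 and 2.92 before PBZ. The level of this difference has no meaning, since probe sets differ in brightness, but its shift does not depend on a scale factor per array. The shift was 3.26 on the log2 scale, a 9.59-fold change relative to the other members. Both arrays after PBZ stood above both before it. The exact permutation test over the 4 arrays gave p = 0.333 (2-sided), which is the smallest p that 2 against 2 arrays allow, so this test could not reach a threshold of 0.05. The shift was 3.06 against the median of the other tested members and 2.99 with the 2 dim members included.

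Member by member, the change of TET8 exceeded that of the other tested genes by 1.58 (TET9) to 4.23 (TET14) on the log2 scale. The 95% intervals of 7 of the 9 others ended below the lower bound of TET8. Those of TET9 (up to 3.79) and TET13 (up to 2.83) overlapped it, so for these 2 genes a rise as large as the lower bound for TET8 was within their error.

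**Figure D4:**
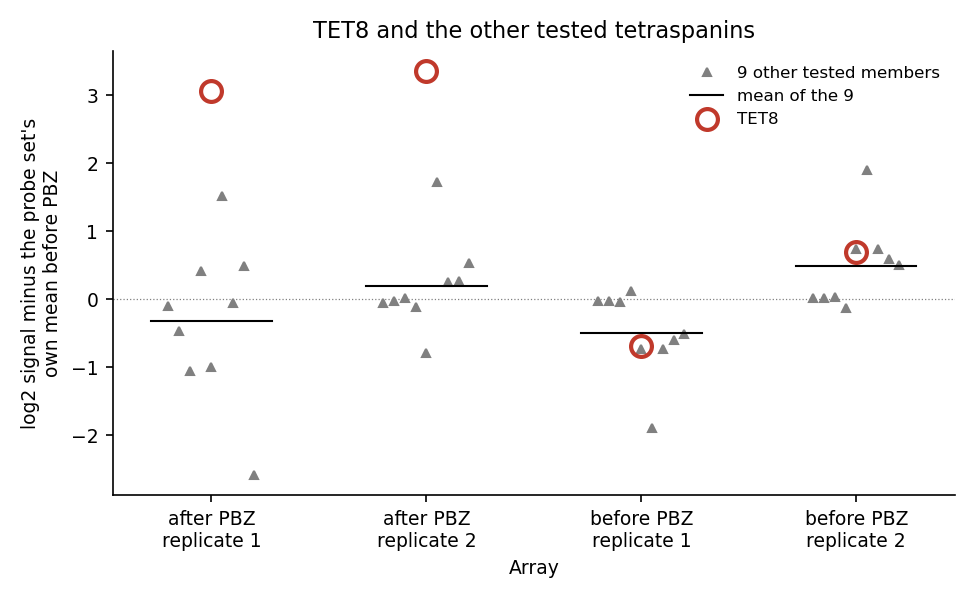
Log2 signal on each array minus the probe set's own mean over the 2 arrays before PBZ, for TET8 (open red circles), the 9 other tested tetraspanins (grey triangles) and their mean (black lines). After PBZ, TET8 lies at 3.05 and 3.36, while the highest of the other members lies at 1.52 and 1.72. Before PBZ, TET8 moved with the mean of the others, lower in replicate 1 and higher in replicate 2. That mean does not describe each member. TET7, TET9, TET10, TET13 and TET14 moved this way, TET9 the most. TET2, TET3 and TET5 hardly moved, and TET6 moved a little the other way.

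Genes linked to vesicles or to membrane domains were read from 5 companion lists. These were the vesicle cargo, multivesicular body, exocyst, secretory SNARE and membrane domain lists, and not all of their genes act in making or releasing vesicles. Of their 79 loci 18 were matched by the annotation to a probe set of 1 gene, and 17 were tested. In these lists 3 genes rose, 2 of the multivesicular body list and 1 of the membrane domain list, and none fell. Of all tested probe sets 5.34% were called higher and 0.245% lower. The median log2 change of the 17 tested genes was 0.59, beside 0.37 for all tested probe sets. None of the 3 calls held without an intensity trend, or with after replicate 1, after replicate 2 or before replicate 1 left out.

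The multivesicular body list holds the sorting machinery (ESCRT) that buds vesicles into that compartment. All 8 of its measured genes had both deposited values after PBZ above both values before it, beside 36.1% of all tested probe sets. Their log2 changes lay between 0.59 and 2.01, with a median of 1.05, and 2 of the 8 rose. Both readings carry the shift between the arrays. With quantile normalization all 8 changes stayed positive, but ELC was at 0.38, VPS2.1 at 0.38 and SNF7.1 at 0.41. The median of all tested probe sets was then -0.06. VPS60.1, an ESCRT-III related subunit, had signals of 278.9 and 210.1 after PBZ, against 42.4 and 84.6 before PBZ (log2 change 2.01 ± 0.57, adjusted p = 0.030). It did not pass with the replicate number as a block (adjusted p = 0.078), or without after replicate 1, after replicate 2 or before replicate 1 (0.419, 0.187 and 0.291). VPS46.2, also named CHMP1A, had 784.2 and 785.1 after PBZ, against 125.3 and 385.9 before PBZ (log2 change 1.84 ± 0.55, adjusted p = 0.042). It did not pass with quantile normalization (adjusted p = 0.059) or with no filter on dim probe sets (0.086), or without these same 3 arrays in turn (0.380, 0.386 and 0.428). VPS22 of ESCRT-II (log2 change 1.17 ± 0.58) and AT1G15130 (1.13 ± 0.56) had the next smallest p, both at an adjusted p of 0.30. The plant-specific RAB5 GTPase ARA6, which sits on multivesicular bodies, had 332.6 and 387.2 after PBZ, against 247.8 and 228.8 before PBZ, with the smallest change of the 8 (0.59 ± 0.52, adjusted p = 0.630). As a multiple of each array's own median, ARA6 overlapped between the groups (10.2 and 14.3 after PBZ, 12.9 and 8.29 before PBZ). With quantile normalization its log2 change was 0.01.

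The exocyst tethers secretory vesicles to the plasma membrane. None of its 4 tested subunits passed, beside 5.58% of all tested probe sets called in either direction. Their median log2 change was -0.30, and the groups overlapped for all 5 matched subunits. Of all tested probe sets 36.1% had both arrays after PBZ above both before it and 10.6% had both below, and the rest overlapped. SEC15A was at -1.09 ± 1.13 (adjusted p = 0.694) and SEC6 at -0.52 ± 0.62 (adjusted p = 0.736). After replicate 2 was the lowest of the 4 arrays for SEC5A, SEC6 and SEC15A, whose changes turned to 0.83, 0.49 and 1.24 without it.

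Of the membrane domain list 3 of 14 genes were matched to a probe set, and 1 rose. AT1G69840 had signals of 1268.2 and 1088.5 after PBZ, against 172.2 and 357.8 before PBZ (log2 change 2.24 ± 0.51, adjusted p = 0.0047). It did not pass without after replicate 1 (adjusted p = 0.198), after replicate 2 (0.117) or before replicate 1 (0.063). AT3G61260 had 219.0 and 204.7 after PBZ, against 348.9 and 389.6 before PBZ (log2 change -0.80 ± 0.53, adjusted p = 0.481). AT2G45820 had 339.2 and 398.4 after PBZ, against 621.3 and 615.3 before PBZ (log2 change -0.75 ± 0.50, adjusted p = 0.484). For AT3G61260 and AT2G45820 both arrays after PBZ were below both before it, beside 10.6% of all tested probe sets. With quantile normalization both passed as lower (log2 changes of -1.34 and -1.28, adjusted p = 0.042 each), a scaling that raised the count of all probe sets called lower to 275, against 30 as deposited. The annotation used here gives these 3 loci no symbol of their own. Of the vesicle cargo list 2 of 11 genes were matched, AT3G58510 (log2 change 0.05 ± 0.56, adjusted p = 0.981) and AT2G42520 (0.49 ± 0.57, adjusted p = 0.729). None of the 10 genes of the secretory SNARE list was analysed here.

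**Figure D5:**
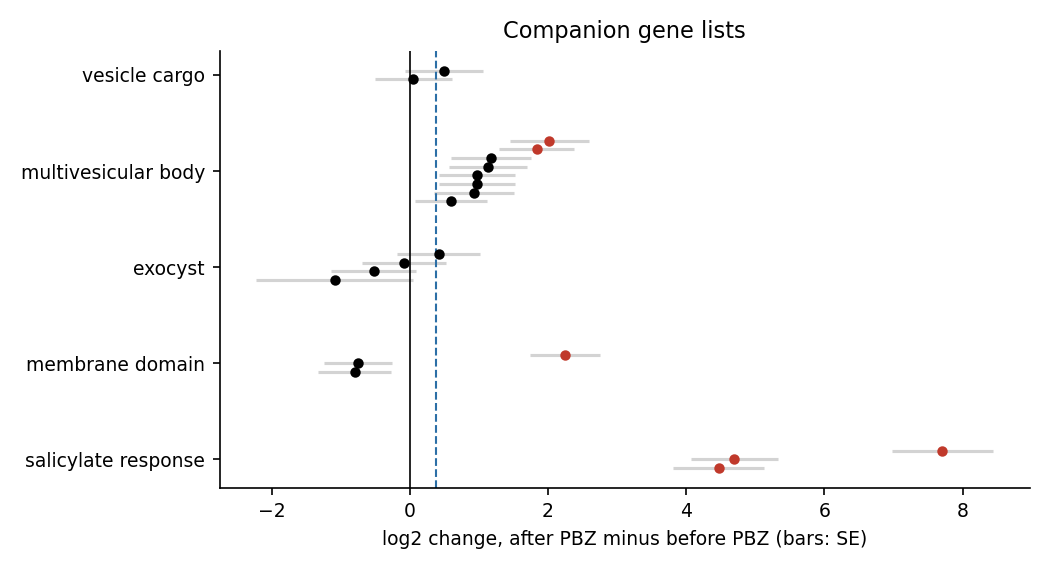
Log2 change, after PBZ minus before PBZ, of each tested gene of the companion lists, with SE bars; red points passed the test, the solid line is 0 and the dashed line the median of all tested probe sets, 0.37. The multivesicular body genes all lie between 0.59 and 2.01, and the exocyst genes between -1.09 and 0.42.

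Of the salicylate response list 3 of 10 genes were matched to a probe set. All 3, GRX480, WRKY53 and UGT76B1, rose, by log2 changes of 4.47 ± 0.66, 4.69 ± 0.63 and 7.71 ± 0.73 (limma adjusted p = 2.91e-05, 6.23e-06 and 1.33e-08), beside 5.34% of all tested probe sets called higher. The list was chosen with earlier results of these data known, so these calls are no independent sign of a salicylate response. Before PBZ, both replicates of UGT76B1 and 1 of GRX480 were under the floor of 6.30, so their fitted sizes are poorly measured.

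The 3 probe sets of 1 gene whose pattern over the 4 arrays was most like that of TET8 were AT1G01920, AT3G05230 and AT1G33220, out of 6815 compared. Likeness was the Euclidean distance between log2 signals, each centred on its own mean over the 4 arrays, and was 0.30, 0.42 and 0.42. AT3G05230 had signals of 290.3 and 239.1 after PBZ, against 16.7 and 43.8 before PBZ, and rose (log2 change 3.28 ± 0.59, adjusted p = 0.000365). AT1G01920 (14.8 and 19.7 after PBZ, 0.9 and 2.6 before PBZ) and AT1G33220 (15.9 and 18.1 after PBZ, 1.2 and 4.2 before PBZ) lay below the floor before PBZ in both replicates and did not pass (adjusted p = 0.187 and 0.226), though both did without before replicate 2 (0.039 and 0.048). With 4 arrays in 2 groups, likeness of this kind mostly reflects the size of the difference between the groups and the gap between the replicates.

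Of the 3 protein-coding genes on each side of TET8 in the reference order, 2 in all were matched to a probe set, and neither passed. AT2G23780, the third on one side, had signals of 205.1 and 330.6 after PBZ, against 109.9 and 110.9 before PBZ (log2 change 1.24 ± 0.55, adjusted p = 0.238). AT2G23830, the second on the other side, had 13.5 and 7.3 after PBZ, against 6.6 and 6.4 before PBZ (log2 change 0.61 ± 1.07, adjusted p = 0.835).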

How the data were processed

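Leaf RNA of 4 samples, grouped by the sample titles, was labelled with biotin as cRNA and put on Affymetrix arrays, per the labels' protocols. GCOS is named by the submitters' processing notes, with no version or settings. The authors deposited 1 intensity per probe set and array on a linear scale, and these were used with the authors' scaling. From 16383 table rows 64 control rows were left out. The platform annotation paired 9685 of 16319 probe sets with 1 gene, and 9647 of these were found in the TAIR10.1 annotation, used for names and gene order only.

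Intensities were put on the log2 scale after the 2 zeros were replaced by 0.1, the smallest positive signal. The lowest 0.25 of probe sets by mean log2 signal (4080) were set aside as dim. The other 12239 were compared between groups with limma 3.58.1 under R 4.3.3, by lmFit and eBayes with an intensity trend (2 residual and 27.2 prior degrees of freedom). Tests were 2-sided, and p-values were adjusted by Benjamini-Hochberg and called under 0.05. The number of arrays limits the precision. The fit was tested on simulated data whose noise was drawn from the fitted intensity trend, so that test could not check the choice of trend. The lower quartile of all signals, 6.30, was the floor for dim values, a choice taken from earlier work on these data. Detection calls were not used here.

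The members and gene lists were chosen with earlier results of these data known. Of 116 list loci 24 were matched to a probe set of 1 gene. Named genes were all tetraspanins, list genes that passed, up to 2 further genes per list with the smallest p, and the 3 most like TET8. ARA6, SEC5A, the cell type markers and the genes beside TET8 were named outside that rule, after their values were seen. Alternatives were 2 other scalings, 2 other dim filters, a pseudocount of 1.3, a replicate block, no intensity trend and each array left out.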

Additional observations from a re-analysis of the deposited data

How the results depend on the processing

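The rise of TET8 kept its direction under all 11 alternatives and its call under 10 of them; without an intensity trend its log2 change of 3.20 had an adjusted p of 0.069, and the cause was not tested. With 1 array left out it ranged from 2.51 to 3.90. No other tetraspanin was called under any alternative. The shift of TET8 against the other tested members ranged from 2.99 to 3.46 over its alternatives. The count of probe sets called higher was 653 as reported, 157 without an intensity trend, and 217 to 1136 with 1 array left out (217 without after replicate 1, 335 without after replicate 2, 328 without before replicate 1, 1136 without before replicate 2). The count called lower was 30 as reported, 275 with quantile normalization, 179 with median centring, 15 with no filter on dim probe sets, 48 with the lowest 0.5 left out, 8 without an intensity trend, and 12 to 38 with 1 array left out (13 without after replicate 2, 12 without before replicate 1). Calls among companion list genes fell to 3, against 6 as reported, without an intensity trend, and were 3 to 6 with 1 array left out. Quantile normalization put the median change of the tested probe sets at -0.06 and median centring at 0.01 (log2).

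The following signs turned, with no call on either side. With quantile normalization TET6 was at -0.22, TET10 at -0.26, AT3G58510 at -0.40 and SEC15B at -0.031; with median centring TET6 was at -0.22, TET10 at -0.27 and AT3G58510 at -0.32. With 1 array left out in turn, log2 changes ranged from -1.06 to 0.021 for TET5, -0.12 to 0.41 for TET6, -0.28 to 3.52 for TET9, -0.64 to 0.83 for TET10, -0.21 to 0.98 for TET13, -2.59 to 0.53 for TET14, -0.029 to 0.13 for AT3G58510, -1.002 to 0.83 for SEC5A, -1.53 to 0.49 for SEC6, -3.42 to 1.24 for SEC15A, -0.35 to 1.18 for SEC15B and -0.26 to 0.20 for LHCB4.1.

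The labels link same-numbered samples of the 2 groups by that number only. Deviations from the group means correlated at r = -0.06 between same-numbered samples, over 2 pairs. With 2 arrays per group the second pair repeats the first with opposite sign. This value therefore cannot tell whether same-numbered samples share a batch. With the replicate number as a block, TET8 was at 3.20 ± 0.56 (SE; limma adjusted p = 1.15e-06). Its SE was larger than the 0.52 as reported, so the smaller adjusted p is no sign of closer replicates. In that fit 543 probe sets were higher and 29 lower, and no other tetraspanin was called. It called 5 companion list genes, VPS60.1 no longer among them.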
